A study of Mus musculus with 8 samples.

Results

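The genes described here are the growth hormone axis of mouse liver together with the Mup and Serpina1 families. Members were chosen by symbol: every gene named Mup followed by a number, Serpina1a to Serpina1e, Ghr, Jak2, Stat5a, Stat5b, Socs2, Cish, Igf1, Igfals, Igfbp2, Igfbp4, Bcl6, Cux2, Onecut1, Elovl3 and Selenbp2. Of 42 such genes in the GENCODE M21 annotation, 41 had a row among the 20894 genes of the table: 22 Mup genes, 5 Serpina1 genes and 14 others. Onecut1 was not analysed here. RNA from snap-frozen liver of wild-type mice was selected for poly-A tails and sequenced as strand-specific libraries. All mice carried an adeno-associated virus of serotype AAV8 with the TBG promoter, which is active mainly in hepatocytes, and all were fasted during the day. The virus carried POLR2G, a subunit of RNA polymerase II, in 4 libraries and green fluorescent protein (GFP) in 4 control libraries. Sex, age, strain and virus dose are not given in the labels, and the labels do not say which animal a library came from. The p-values therefore reflect only how much these libraries vary, which may be technical.

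Growth hormone from the pituitary binds its receptor GHR on hepatocytes, which activates the kinase JAK2 and the transcription factors STAT5A and STAT5B. STAT5 induces its own inhibitors CISH and SOCS2, the hormone IGF1 and IGFALS, the protein that holds IGF1 in a large circulating complex. The hormone is released in pulses in male rodents and more evenly in females, and many liver genes, among them Mup genes, differ between the sexes for that reason. Mup genes encode the major urinary proteins, small carriers of pheromones that liver secretes. The mouse Serpina1 genes are copies of the gene for alpha-1 antitrypsin, a secreted inhibitor of serine proteases.

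The Serpina1 genes are near-identical copies, and most Mup genes share much of their sequence. The sequence that a copy has of its own sets how well its counts can be told apart. The 5 Serpina1 coding sequences align over 1239 bases without gaps, and pairs were 96.3% to 98.5% identical. Of the 86 coding positions that differ among them, 19 fall in a stretch of 75 bases (coding bases 1099 to 1173), against a median of 4 over all windows of that length. This stretch lies in the part that encodes the reactive centre loop, the bait that a protease cuts. It is shown because it is where the copies can best be distinguished. Sequences are from GRCm38 with GENCODE M21, all on the minus strand of chromosome 12, written 5′ to 3′, with capitals at the positions that differ among the 5 genes:
Serpina1a (chr12:103853744-103853818): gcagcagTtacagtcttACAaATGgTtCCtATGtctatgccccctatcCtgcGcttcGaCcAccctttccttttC
Serpina1b (chr12:103728311-103728385): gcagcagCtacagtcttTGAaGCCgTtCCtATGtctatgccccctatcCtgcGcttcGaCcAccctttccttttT
Serpina1c (chr12:103895081-103895155): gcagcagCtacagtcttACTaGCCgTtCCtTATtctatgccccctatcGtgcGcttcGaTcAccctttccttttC
Serpina1d (chr12:103763749-103763823): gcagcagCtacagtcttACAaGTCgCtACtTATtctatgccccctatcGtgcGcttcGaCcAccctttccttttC
Serpina1e (chr12:103947087-103947161): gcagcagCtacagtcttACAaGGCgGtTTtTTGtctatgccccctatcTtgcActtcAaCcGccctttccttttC
Serpina1e had 8 bases in this stretch, and 24 in its whole coding sequence, that none of the other copies has.

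The share of a gene's own sequence was taken as the percent of its 31-base words, over its annotated protein-coding transcripts, that occur in no other gene. It was 45.8% for Serpina1e, 35.3% for Serpina1d, 34.8% for Serpina1a, 55.3% for Serpina1b and 17.8% for Serpina1c. Among the Mup genes the median was 8.95%, and Mup15 and Mup22 had no word of their own. Mup3, with 69.9%, and Mup21, with 66.2%, were among the Mup genes best told apart, while Mup7 had 9.98% and Mup20 35.5%. Of all words, 89.0% in the Mup family and 81.6% in the Serpina1 family occur in no gene outside the family. Values of single copies with little sequence of their own are therefore uncertain, and the summed counts of each family are given beside them.

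Values are in CPM, estimated counts of a gene per 1e6 counts of its library, scaled by the trimmed mean of M-values (TMM). The table held between 14159056 and 22165491 estimated counts per library. Polr2g, the gene carried by the virus, was at 12.4, 14.8, 13.7 and 13.98 CPM in GFP control replicates 1 to 4. In POLR2G replicate 1, a POLR2G library whose number in the table is absent from the labels (the unnumbered POLR2G library) and POLR2G replicates 3 and 4 it was at 2632, 2315, 2399 and 2299.9 CPM. By this gene the 7 labelled libraries match their labels, and the unnumbered library matches the group in its column name. All lists of 4 values below follow this order of libraries. GFP control replicate 3 stood apart from the other 7 libraries in several members, so a number of results are also given without it.

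In livers with POLR2G, most Mup genes, Serpina1e, Ghr, Igf1, Igfals, Cish and Selenbp2 had a higher mean than in GFP control livers, but no member passed the test adjusted over all genes. Of the 41 members, 38 passed the filter on low counts (Cux2, Mup4 and Mup6 did not), and 27 of these had a higher and 11 a lower mean with POLR2G, against 49.3% higher among all 10390 genes tested. Their median log2 fold change was 0.27, against -0.0031 over all genes. At an adjusted p under 0.05, edgeR's quasi-likelihood test called 0 members (0.0385% of all genes were called) and limma-voom called 0 (0.0289% of all genes). DESeq2 called 4 members higher, Ghr, Serpina1e, Mup3 and Mup21, where 1.35% of all genes were called and 0.731% were called higher. At an unadjusted edgeR p under 0.05, 10 members were higher and 0 lower (4.20% of all genes were higher and 4.10% lower). In 6 members, Ghr, Igfals, Mup3, Mup21, Serpina1d and Serpina1e, all POLR2G libraries lay above all GFP control libraries, which was so for 2.83% of all genes. The count of 10 was 21 without GFP control replicate 1 (4.12% of all genes), and it was 6 without GFP control replicate 2 (4.03%), without POLR2G replicate 1 (3.30%) or without POLR2G replicate 4 (2.86%). The count of 6 was 20 without GFP control replicate 1, where 4.64% of all genes were apart in that direction. With libraries scaled by their totals only it was 4, as Igfals and Serpina1d then overlapped between the groups. The share of all genes is not given for that scaling, so the count of 4 cannot be set against it. With that scaling the median log2 fold change over all genes was -0.079. Estimated counts can be split between copies of a family, so members are not independent of each other.

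**Figure D1:**
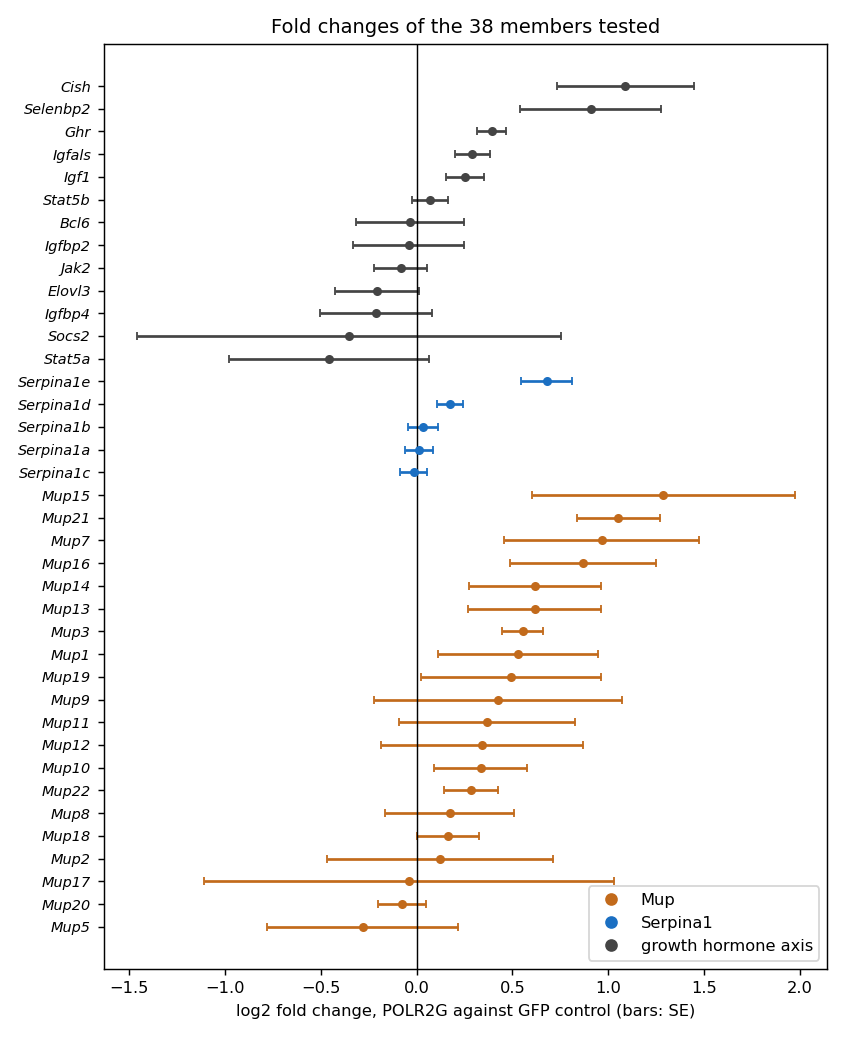
The log2 fold change of POLR2G against GFP control for the 38 members tested, with 1 row per gene, horizontal bars for the SE and colours for the Mup, Serpina1 and growth hormone axis genes. Cish, Selenbp2 and most Mup genes lie to the right of 0, and the narrow bars of Ghr, Mup3 and Serpina1e do not reach it.

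Ghr (ENSMUSG00000055737, chr15:3317760-3583492, minus strand) encodes the growth hormone receptor. It was at 117, 115, 101 and 99.4 CPM in the GFP control libraries and at 136, 139.9, 145 and 148 CPM in the POLR2G libraries. The 4 POLR2G libraries all lay above the 4 control libraries, and the spread within each group was small. The mean was 108 ± 9.27 CPM with GFP and 142 ± 5.28 CPM with POLR2G (SD, n = 4 each), a log2 fold change of 0.39 (SE 0.0748, 1.31-fold). The adjusted p was 0.164 by edgeR and 3.85e-04 by DESeq2, and it ranged from 3.85e-04 to 0.596 over all alternatives. With any 1 library left out the log2 fold change was between 0.35 and 0.43. In bulk liver, fewer cells of a type and less RNA per cell cannot be told apart, here or in the results below.

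Differences in the kinase and the STAT5 genes did not exceed the spread between libraries. Jak2, the kinase bound to the receptor, was at 14.98, 19.0, 20.8 and 22.8 CPM with GFP and 19.6, 17.4, 16.1 and 20.1 CPM with POLR2G (log2 fold change -0.083, SE 0.137, edgeR adjusted p = 0.929). Stat5b, the main STAT5 gene of liver, was at 49.6, 50.01, 59.9 and 56.4 CPM with GFP and 55.3, 50.01, 60.7 and 60.6 CPM with POLR2G (log2 fold change 0.070, SE 0.0920, edgeR adjusted p = 0.902), and its sign turned to -0.012 when libraries were scaled by their totals only. The groups overlapped in both genes, with Jak2 lowest in GFP control replicate 1. Stat5a, the closely related second gene, was at 8.71, 10.4, 11.4 and 2.55 CPM with GFP and 10.8, 5.03, 2.11 and 5.98 CPM with POLR2G (log2 fold change -0.46, SE 0.522, edgeR adjusted p = 0.878). Its libraries differed within both groups, from 36 to 224 counts, so a moderate difference was not detectable.

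Cish and Socs2 encode inhibitors that STAT5 induces and that shut off signalling at the receptor. Cish (ENSMUSG00000032578, chr9:107296026-107302784, plus strand) was at 17.3, 9.81, 12.6 and 9.92 CPM in the GFP control libraries and at 29.3, 35.2, 9.78 and 31.3 CPM in the POLR2G libraries. In 3 of the 4 POLR2G libraries it lay above every control library, while POLR2G replicate 3 was the lowest of all 8. The mean was 12.4 ± 3.51 CPM with GFP and 26.4 ± 11.3 CPM with POLR2G (SD, n = 4 each), a log2 fold change of 1.09 (SE 0.357, 2.13-fold, edgeR adjusted p = 0.449, DESeq2 adjusted p = 0.0831). Without POLR2G replicate 3 the log2 fold change was 1.36, with an edgeR adjusted p of 0.122, and over all alternatives the adjusted p ranged from 0.0831 to 0.782. Socs2 had few counts in most libraries, 14, 4, 124 and 30 with GFP and 7, 29, 6 and 103 with POLR2G. GFP control replicate 3 and POLR2G replicate 4 held most of them, so its log2 fold change of -0.35 (SE 1.11, edgeR adjusted p = 0.967) turned to 1.22 without GFP control replicate 3.

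STAT5 binds the bases TTCNNNGAA, which read the same on both strands. This motif was searched in the promoter windows of RefSeq (GRCm38.p6), from 250 bases before to 50 bases after each start. It was in 2726 of 32851 windows (8.30%), and 0.457% of windows held 2 or more matches. Of the members, 32 had 40 windows, and 5 windows of 3 members, Cish, Igfals and Bcl6, held the motif, against 9.55% of all genes with a window. Bcl6 (log2 fold change -0.036) held the most, 3 matches in 1 window and 1 in another. Of the genes with a window, 0 of 14 Mup genes and 0 of 5 Serpina1 genes held a match. No match says only that these letters are not in the window. The Cish window and 1 of the 2 matching Igfals windows are shown as examples, chosen because the mean of both genes was higher with POLR2G, so they say nothing about how matches go with the values. They are on the plus strand, with the matches in capitals:
Cish (chr9:107296409-107296708): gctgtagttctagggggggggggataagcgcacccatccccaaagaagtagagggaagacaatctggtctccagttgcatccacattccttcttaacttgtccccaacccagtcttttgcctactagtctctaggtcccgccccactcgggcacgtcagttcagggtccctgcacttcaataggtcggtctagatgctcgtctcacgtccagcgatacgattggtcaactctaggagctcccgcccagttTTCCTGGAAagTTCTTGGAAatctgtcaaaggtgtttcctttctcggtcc
Igfals (chr17:24877981-24878280): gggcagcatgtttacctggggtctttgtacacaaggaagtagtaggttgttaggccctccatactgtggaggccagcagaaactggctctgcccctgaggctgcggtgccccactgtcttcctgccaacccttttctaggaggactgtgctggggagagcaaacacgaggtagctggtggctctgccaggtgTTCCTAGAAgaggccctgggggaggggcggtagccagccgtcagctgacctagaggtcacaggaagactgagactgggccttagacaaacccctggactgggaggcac
Cish held 2 matches 2 bases apart, close to the start, and this Igfals window held 1. A match is a description of the sequence and no measure of binding in these livers.

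The ligand and its carrier were both somewhat higher in mean with POLR2G, and the binding protein genes Igfbp2 and Igfbp4 were not. Igf1, the hormone that liver releases in response to growth hormone, was at 181, 140.3, 132 and 146 CPM with GFP and 177, 168, 179.7 and 189.6 CPM with POLR2G. GFP control replicate 1 lay among the POLR2G libraries and the other 3 control libraries below them. The mean was 149.8 ± 21.6 CPM with GFP and 179 ± 8.91 CPM with POLR2G (SD, n = 4 each), a log2 fold change of 0.25 (SE 0.100, edgeR adjusted p = 0.530). Igfals, which holds IGF1 and its binding protein in the circulating complex, was at 63.7, 53.8, 63.1 and 51.5 CPM with GFP and 68.8, 65.6, 73.1 and 76.2 CPM with POLR2G. All POLR2G libraries lay above all control libraries, by a narrow margin that was lost with scaling by totals only. The mean was 58.0 ± 6.29 CPM with GFP and 70.9 ± 4.68 CPM with POLR2G (SD, n = 4 each), a log2 fold change of 0.29 (SE 0.0906, 1.22-fold, edgeR adjusted p = 0.419).

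Igfbp2 and Igfbp4 encode IGF binding proteins that limit the access of IGF1 to its receptor, and both had low values in these libraries. Whether these values, or those of Stat5a and Socs2 above, hold all transcripts of the gene was not tested. Igfbp2 was at 2.04, 1.39, 2.51 and 2.28 CPM with GFP and 2.17, 1.98, 2.40 and 1.42 CPM with POLR2G (log2 fold change -0.042, SE 0.290, edgeR adjusted p = 0.990). Igfbp4 was at 5.20, 4.76, 4.64 and 5.64 CPM with GFP and 4.01, 2.64, 7.20 and 3.65 CPM with POLR2G (log2 fold change -0.21, SE 0.293, edgeR adjusted p = 0.906). Both genes overlapped between the groups, and in Igfbp4 the highest and the lowest library were both POLR2G libraries.

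Bcl6 and Cux2 encode repressors that act on sex-biased liver genes, BCL6 on STAT5 targets and CUX2 mainly in female liver. Bcl6 was at 8.14, 12.8, 23.5 and 15.1 CPM with GFP and 15.3, 17.8, 12.4 and 12.2 CPM with POLR2G (log2 fold change -0.036, SE 0.282, edgeR adjusted p = 0.992). Cux2 had 2, 4, 102 and 7 counts with GFP and 9, 11, 4 and 6 counts with POLR2G and was not tested. GFP control replicate 3 was the highest library in both genes. Without it the log2 fold change of Bcl6 was 0.27.

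Elovl3 and Selenbp2 are target genes that are higher in male than in female mouse liver. Selenbp2, a selenium binding protein, was at 1853, 734, 439 and 1268 CPM with GFP and 2298, 1885, 1706 and 2178 CPM with POLR2G. Only GFP control replicate 1 reached into the range of the POLR2G libraries, and GFP control replicate 3 was lowest. The mean was 1074 ± 623 CPM with GFP and 2017 ± 270.3 CPM with POLR2G (SD, n = 4 each), a log2 fold change of 0.91 (SE 0.369, 1.88-fold, edgeR adjusted p = 0.541). It was 0.65 without GFP control replicate 3 and 1.31 without GFP control replicate 1. Elovl3, a fatty acid elongase, was at 60.4, 87.2, 40.9 and 83.9 CPM with GFP and 65.2, 47.1, 57.7 and 66.0 CPM with POLR2G. The groups overlapped and the mean was lower with POLR2G (log2 fold change -0.21, SE 0.222, edgeR adjusted p = 0.869), a difference smaller than its SE.

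**Figure D2:**
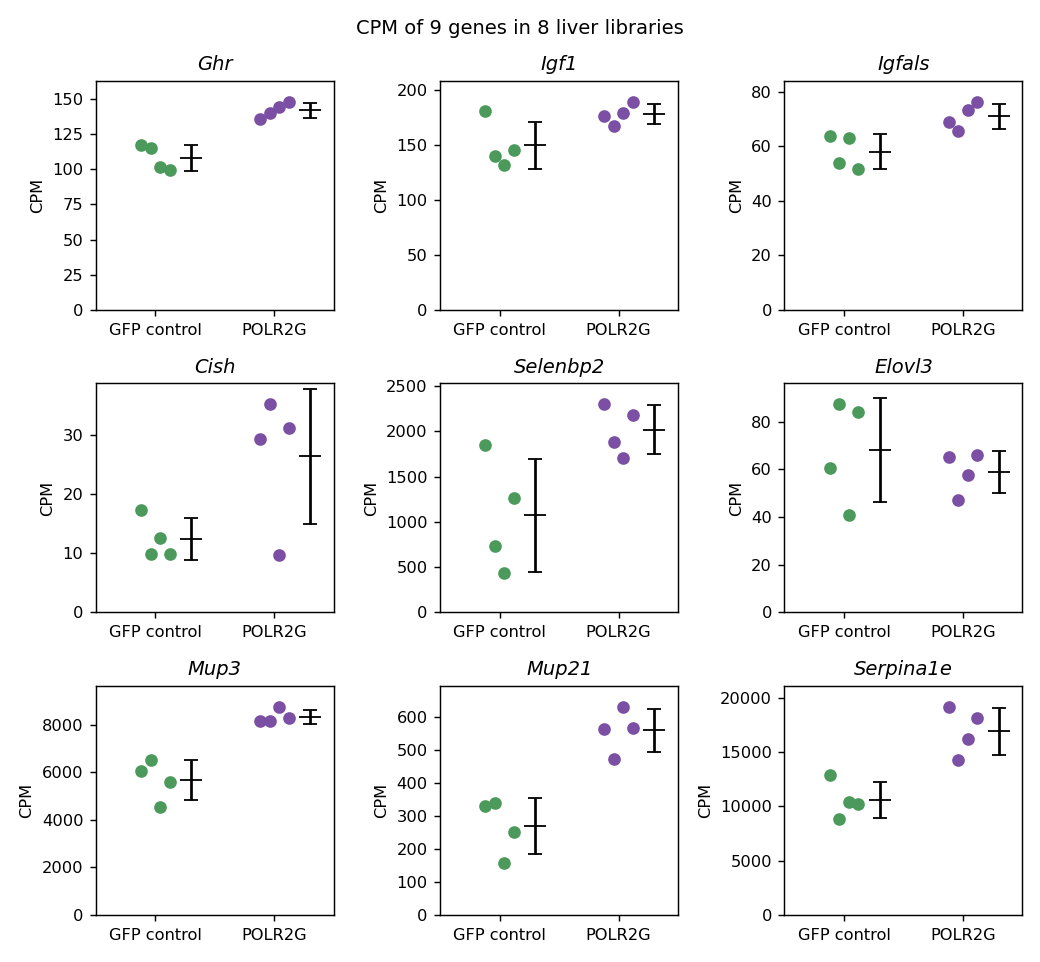
CPM of 9 members in the 4 GFP control (green) and 4 POLR2G (purple) libraries, each point a library and the black bar the mean with 1 SD, on linear axes from 0. The groups do not overlap in Ghr, Igfals, Mup3, Mup21 and Serpina1e, and in Cish POLR2G replicate 3 lies just below the lowest control library.

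Mup transcripts made up a large part of all counts. The 22 Mup genes together held 16.1, 9.59, 6.89 and 10.01% of all counts in the GFP control libraries and 18.0, 12.5, 13.8 and 14.3% in the POLR2G libraries. GFP control replicate 1 lay within the range of the POLR2G libraries and GFP control replicate 3 was the lowest of all 8. The mean share was 10.6% ± 3.87 with GFP and 14.7% ± 2.37 with POLR2G (SD, n = 4 each). In CPM the sum was 1.51-fold higher with POLR2G, a log2 difference of 0.59 (exact two-sided permutation p = 0.114, where 4 against 4 libraries cannot give less than 0.0286). The difference was 0.86 without GFP control replicate 1 (exact permutation p = 0.0286, the smallest possible with 35 arrangements) and 0.37 without GFP control replicate 3. As 1 row of the table, the sum had an edgeR log2 fold change of 0.52 (SE 0.272, adjusted p = 0.672). Counting error is small here: 95% Wilson intervals of a family's share of a library reach at most 0.0166 percentage points to either side, and those of a copy's share of its family at most 0.140. They cover counting error only.

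**Figure D3:**
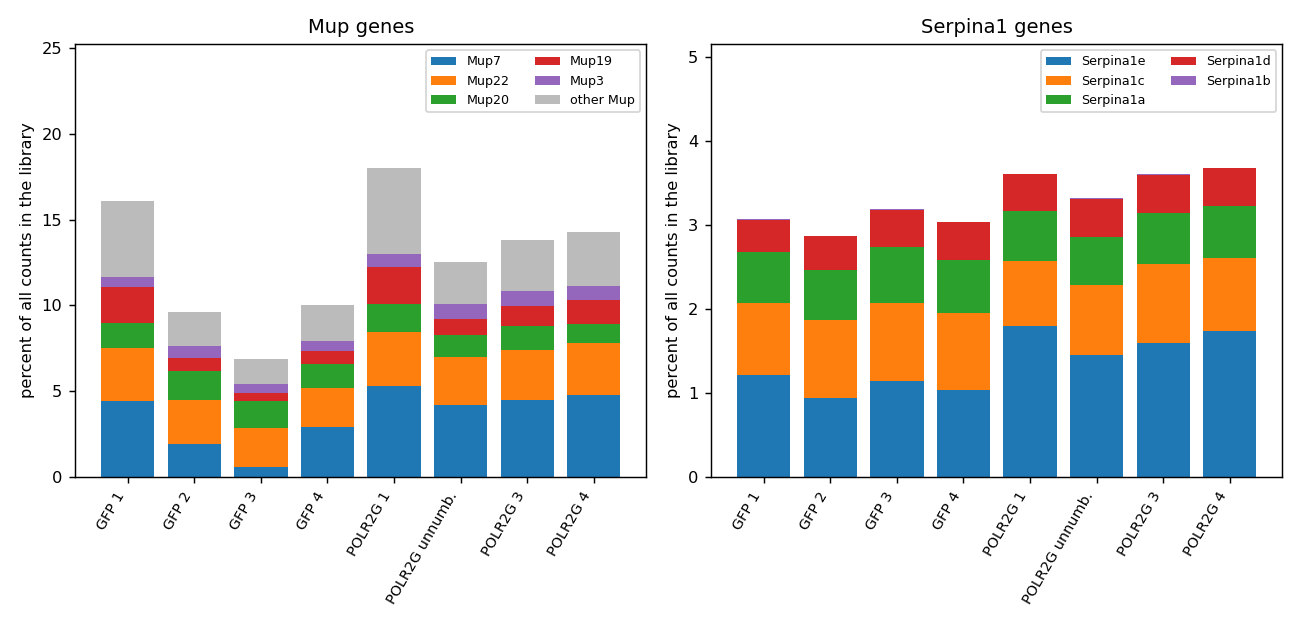
Percent of all counts of a library held by the Mup genes (left) and the Serpina1 genes (right), stacked by gene, with 1 bar for each of the 8 libraries. The Mup bars range from 6.89% in GFP control replicate 3 to 18.0% in POLR2G replicate 1, and in the Serpina1 bars the lowest segment, Serpina1e, is taller in all POLR2G libraries.

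Among the 20 Mup genes tested, 17 had a higher and 3 a lower mean with POLR2G, with a median log2 fold change of 0.40. Mup3 and Mup21, the tested Mup genes with the most sequence of their own, were also the only 2 whose groups did not overlap. Mup3 (ENSMUSG00000066154, chr4:62083476-62087342, minus strand) was at 6036, 6524, 4545 and 5587 CPM with GFP and 8150.2, 8142, 8758 and 8267 CPM with POLR2G. The POLR2G libraries lay close together and above all control libraries. The mean was 5673 ± 844 CPM with GFP and 8329 ± 291 CPM with POLR2G (SD, n = 4 each), a log2 fold change of 0.55 (SE 0.107, 1.47-fold, adjusted p = 0.166 by edgeR and 1.28e-04 by DESeq2, up to 0.517 over the alternatives). Mup21 (ENSMUSG00000066153, chr4:62147932-62150863, minus strand) was at 329.7, 339, 157 and 251 CPM with GFP and 564, 473, 629.9 and 567 CPM with POLR2G. Here GFP control replicate 3 was lowest, and every POLR2G library lay above every control library. The mean was 269 ± 84.7 CPM with GFP and 558 ± 64.7 CPM with POLR2G (SD, n = 4 each), a log2 fold change of 1.05 (SE 0.218, 2.07-fold, adjusted p = 0.198 by edgeR and 2.06e-04 by DESeq2, up to 0.504 over the alternatives). Without GFP control replicate 3 the log2 fold change was 0.46 for Mup3 and 0.86 for Mup21.

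The 4 Mup genes with the highest mean, Mup7, Mup22, Mup20 and Mup19, overlapped between the groups. Mup7 was at 47319.8, 17725, 5177 and 28259 CPM with GFP and 56651, 40776, 45129 and 49831 CPM with POLR2G (log2 fold change 0.97, SE 0.508, edgeR adjusted p = 0.669). Within the GFP control group it spanned the widest range of these genes, lowest in replicate 3 and highest in replicate 1, and its log2 fold change was 0.63 without replicate 3 and 1.495 without replicate 1. Mup22 was at 32722, 24715, 20748 and 22374 CPM with GFP and 33798, 27463, 29519 and 31577 CPM with POLR2G (log2 fold change 0.28, SE 0.140, edgeR adjusted p = 0.650). Mup19 was at 22676, 6975, 4613 and 7940.1 CPM with GFP and 23034, 9506, 11984 and 14879.6 CPM with POLR2G (log2 fold change 0.49, SE 0.471, edgeR adjusted p = 0.843). Both were highest in replicate 1 of either group, and without GFP control replicate 3 the log2 fold change of Mup19 was 0.24. Mup20, the gene of darcin, a male pheromone protein, was at 15292, 16005, 14124 and 13727 CPM with GFP and 17562, 12558, 14277 and 11662 CPM with POLR2G (log2 fold change -0.077, SE 0.126, edgeR adjusted p = 0.927). It had a slightly lower mean with POLR2G, unlike the other 3. Mup16 was at 1572, 673, 561 and 579 CPM with GFP and 2531, 1080.1, 1213 and 1354 CPM with POLR2G (log2 fold change 0.87, SE 0.383, edgeR adjusted p = 0.595). Here too replicate 1 was the highest library of each group. The other 13 Mup genes tested had log2 fold changes from -0.28 to 1.29, 11 higher and 2 lower in mean, with a smallest edgeR adjusted p of 0.672. Mup4, with 0 to 9 counts, and Mup6, with 4 to 10, were not tested.

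The makeup of the Mup pool, as estimated, also varied between libraries. Mup7 has 9.98% of words of its own and Mup22 none, so these shares may depend on how counts were divided between copies. Mup7 took 27.6, 19.6, 8.23 and 28.7% of Mup counts with GFP and 29.4, 33.2, 32.2 and 33.3% with POLR2G. Mup20 took 8.92, 17.7, 22.5 and 13.9% with GFP and 9.10, 10.2, 10.2 and 7.80% with POLR2G. In GFP control replicate 3 the Mup7 share was lowest and the Mup20 share highest, and the POLR2G libraries were alike, at 32.0% ± 1.85 for Mup7 and 9.33% ± 1.15 for Mup20 (SD, n = 4). The control means were 21.02% ± 9.45 and 15.7% ± 5.73 (SD, n = 4), and without replicate 3 they were 25.3% ± 4.99 and 13.5% ± 4.38 (SD, n = 3). The groups did not overlap in the Mup7 share, and in the Mup20 share they overlapped through GFP control replicate 1 alone.

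**Figure D4:**
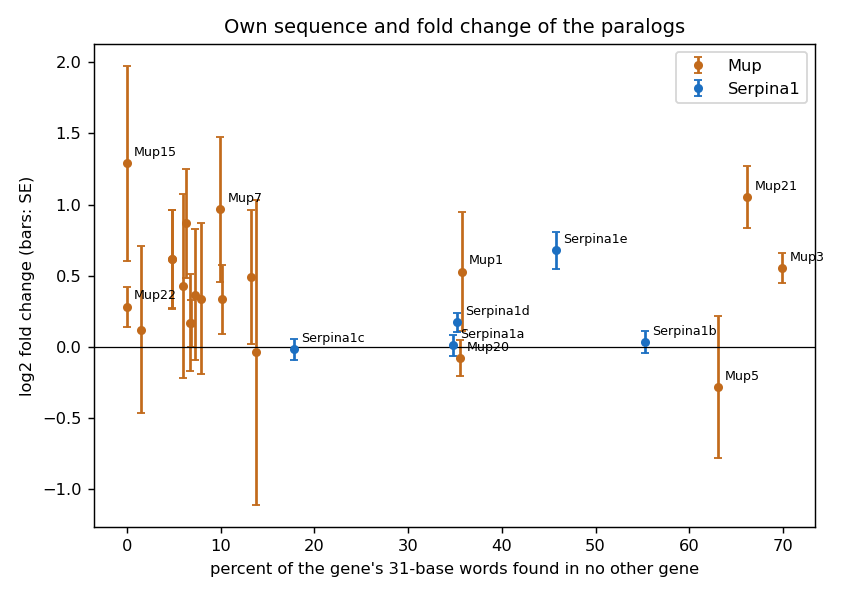
The log2 fold change of each tested Mup (orange) and Serpina1 (blue) gene, with bars for the SE, against the percent of its 31-base words that no other gene holds. Most Mup genes lie at the left with wide bars, and Mup21, Mup3 and Serpina1e combine more sequence of their own with values above 0. Other genes with much sequence of their own do not: Mup5 (63.0%, log2 fold change -0.28) and Mup20 (35.5%, -0.077) lie below 0, and Serpina1b (55.3%, 0.034) lies close to it.

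Within the Serpina1 family, most of the difference between the groups lay in Serpina1e. The 5 Serpina1 genes together held 3.07, 2.87, 3.19 and 3.04% of all counts with GFP and 3.61, 3.32, 3.60 and 3.69% with POLR2G. In CPM the sum was 29729.8 ± 2321 with GFP and 36565 ± 2866 with POLR2G (SD, n = 4 each), a log2 difference of 0.30 (1.23-fold, exact two-sided permutation p = 0.0571). Without the unnumbered POLR2G library the log2 difference was 0.35, and it was 0.32 with upper quartile scaling and 0.22 with scaling by totals only, each with an exact permutation p of 0.0286, the smallest possible. With the sum as 1 row of the table, the edgeR log2 fold change was 0.30 (SE 0.0812, adjusted p = 0.347). Without Serpina1e, the sum of Serpina1a to Serpina1d was 19140.2 ± 755 CPM with GFP and 19618 ± 1003 CPM with POLR2G, a log2 difference of 0.035. Serpina1e (ENSMUSG00000072849, chr12:103946931-103958975, minus strand) was at 12909.6, 8875, 10375 and 10199 CPM with GFP and 19198, 14259, 16199 and 18130.4 CPM with POLR2G. All POLR2G libraries lay above all control libraries, of which replicate 1 came nearest. The log2 fold change was 0.68 (SE 0.131, 1.600-fold, n = 4 each), with an adjusted p of 0.166 by edgeR and 1.28e-04 by DESeq2, and of up to 0.440 over the alternatives. Its share of Serpina1 counts was 39.4, 32.7, 35.7 and 34.1% with GFP and 49.7, 43.8, 44.4 and 47.0% with POLR2G. The groups were apart in this share, at 35.5% ± 2.90 and 46.2% ± 2.69 (SD, n = 4 each). It is built from the same counts as the CPM values and adds no separate evidence. The shares of Serpina1a, Serpina1b and Serpina1c were apart in the other direction.

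The other Serpina1 genes had smaller differences. Serpina1d was at 4122, 3839, 4034 and 4419 CPM with GFP and 4665, 4449.7, 4588 and 4806 CPM with POLR2G (log2 fold change 0.17, SE 0.0682, 1.13-fold, edgeR adjusted p = 0.530). All POLR2G libraries lay above all control libraries, though not with scaling by totals only. Serpina1a was at 6453, 5613, 6123 and 6279.5 CPM with GFP and 6380.2, 5628, 6200.1 and 6472 CPM with POLR2G (log2 fold change 0.012, SE 0.0754, and -0.063 with scaling by totals only). Serpina1c was at 9213, 8787, 8511 and 8945 CPM with GFP and 8329, 8141, 9457 and 9129 CPM with POLR2G (log2 fold change -0.016, SE 0.0726, and 0.0053 with upper quartile scaling). The groups overlapped in both. Serpina1b was the least abundant copy in CPM, at 58.4, 51.7, 54.9 and 57.9 with GFP and 62.9, 54.6, 58.3 and 52.4 with POLR2G (log2 fold change 0.034, SE 0.0778, and -0.041 with scaling by totals only). As GENCODE M21 gives it, the family lies in a cluster on chromosome 12.

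Genes of the same pathways and families were listed beside the members, and edgeR and limma-voom called 0 genes of the lists below. Of 24 genes of growth hormone signalling, 21 were tested, with 10 higher and 11 lower in mean, a median log2 fold change of -0.076, 3 higher and 3 lower at an unadjusted edgeR p under 0.05 and 2, Ghr and Socs3, called higher by DESeq2. The 2 smallest p were those of Socs3, an inhibitor of cytokine receptors (log2 fold change 1.01, SE 0.189, edgeR adjusted p = 0.164), and Ghr. Of 16 genes of the IGF system, 10 were tested, 6 higher and 4 lower (median 0.12), 2 of them, Igfals and Igf1, higher at an unadjusted p under 0.05 and 0 called by DESeq2. Of 18 other Serpina genes, 12 were tested, 7 higher and 5 lower (median 0.0097), and the 2 with an unadjusted p under 0.05 were lower, opposite to Serpina1e. Serpina7, the mouse thyroxine-binding globulin gene, was at 2.83, 3.19, 2.71 and 2.76 CPM with GFP and 0.676, 1.198, 1.05 and 1.14 CPM with POLR2G (log2 fold change -1.50, SE 0.272, edgeR adjusted p = 0.152). Its counts were low, 50, 55, 42 and 51 with GFP and 14, 20, 18 and 20 with POLR2G, and DESeq2 gave it no adjusted p. Serpina6, the corticosteroid-binding globulin gene, was at 259, 282, 286 and 251 CPM with GFP and 169.9, 179, 240.1 and 216 CPM with POLR2G (log2 fold change -0.42, SE 0.113, edgeR adjusted p = 0.350), and DESeq2 called it lower. In both genes all POLR2G libraries lay below all control libraries, which was so for 2.68% of all genes.

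In lists of sex-biased liver genes, GFP control replicate 3 lay at an end of the range of all 8 libraries. Of 22 male-biased genes, of which 4 are members, 20 were tested, 16 higher and 4 lower in mean with POLR2G (median log2 fold change 0.41), 8 of them higher and 0 lower at an unadjusted p under 0.05, and DESeq2 called Serpina1e alone. The 4 smallest p were those of Serpina1e, Nudt7 (log2 fold change 0.58), Cyp2d9 (0.46) and Ugt2b1 (0.50), the last a glucuronosyltransferase and Cyp2d9 a steroid hydroxylase. Of 27 female-biased genes, 12 were tested, 1 higher and 11 lower (median -0.75), with some of the smallest p in the thioesterase Acot3 (-2.28), the steroid hydroxylase Cyp17a1 (-1.33) and the peroxisomal transporter Abcd2 (-0.81). At an unadjusted p under 0.05, 1 of these genes was higher and 7 were lower, and DESeq2 called Acot3 and Cyp17a1 lower. The median of a list's log2 CPM, taken relative to each gene's mean over the GFP control libraries, was 0.35, 0.064, -0.51 and 0.22 in the control and 0.53, 0.33, 0.35 and 0.47 in the POLR2G libraries for male-biased genes. For female-biased genes it was -0.43, -0.40, 0.86 and -0.090 in the control and -0.70, -0.59, -0.45 and -1.04 in the POLR2G libraries. All POLR2G libraries thus lay below all control libraries in the female-biased list, by a narrow margin. GFP control replicate 3 was lowest in the first list and highest in the second, as it was lowest for the Mup sum and Selenbp2 and highest for Bcl6, Cux2 and Socs2. Without it, the median log2 fold change was 0.24 for male-biased and -0.37 for female-biased genes.

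Eif2s3y, a gene of the Y chromosome looked at after its values were seen, was at 62.5, 58.6, 21.7 and 55.1 CPM with GFP and 46.3, 63.8, 54.0 and 55.5 CPM with POLR2G. It was detected in every library and lowest in GFP control replicate 3. Uty, the other Y gene tested, was at 3.84, 3.25, 1.81 and 4.99 CPM with GFP and 1.399, 3.77, 8.02 and 10.1 CPM with POLR2G, lowest in POLR2G replicate 1 and next lowest in GFP control replicate 3. Xist and Ddx3y were not analysed here. The part of the difference of GFP control replicate 3 in the results was not tested beyond leaving it out, and the values for the Mup sum, Mup3, Mup7, Mup19, Mup21, Selenbp2, Bcl6 and Socs2 without it are those given above. Without it the log2 fold change was also -0.26 for Stat5a, -0.39 for Elovl3 and 0.71 for Mup16.

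**Figure D5:**
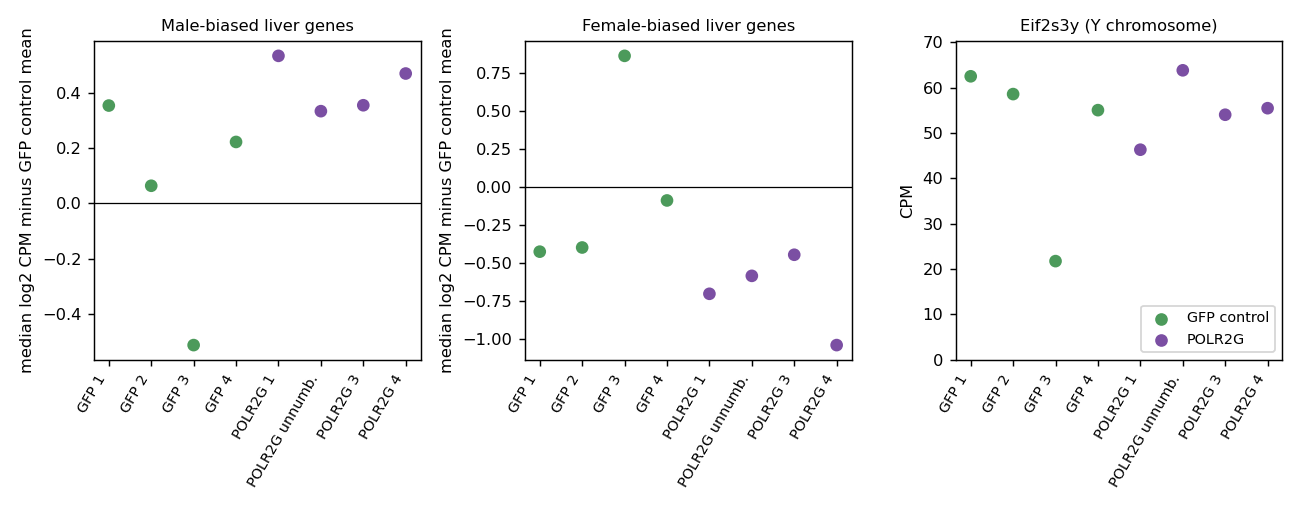
Median log2 CPM of the male-biased (left) and female-biased (middle) liver genes relative to the GFP control mean, and CPM of Eif2s3y (right), with 1 point per library. GFP control replicate 3 is the lowest point at left and right and the highest in the middle, and the POLR2G libraries lie within the control range or beyond its opposite end.

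Markers of cell types were summed in CPM. Hepatocyte markers (6 of 7 analysed, 5 of 6 lower in mean) held 110834 to 132210.5 CPM with GFP and 103619 to 116867 CPM with POLR2G. Kupffer cell markers (6 of 6 higher in mean) held 174 to 275 CPM with GFP and 191 to 379.7 CPM with POLR2G, and red blood cell genes (4 of 4 higher) 596 to 1418 and 786 to 1519 CPM. Endothelial markers (3 higher, 2 lower) lay between 96.0 and 129 CPM with GFP and between 103 and 129 with POLR2G. Stellate cell markers (4 higher, 1 lower) lay between 47.1 and 88.7 CPM with GFP and between 50.3 and 79.1 with POLR2G. Cholangiocyte, lymphocyte and neutrophil markers did not exceed 11.7, 2.44 and 0.791 CPM in any library. The ranges of the groups overlapped in every list, and the part of cell makeup in the members' values was not tested.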

How the data were processed

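Liver RNA of 8 libraries, 4 POLR2G and 4 GFP control, was measured. The authors deposited 1 table of estimated counts, already whole numbers and not normalized. The submitters' processing notes name Salmon 1.2.1, GRCm38 and mm10, with no role. For the annotation release and the summing of transcripts, the sources used here give nothing. Columns were assigned by library name, and 1 POLR2G column with a number that no label has entered as an unnumbered POLR2G library. Symbols were found for 20817 of 20894 gene identifiers in GENCODE M21. No library was a duplicate: chi-square over genes, per degree of freedom, was 13.4 to 138 for the 12 pairs within groups.

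Genes passing filterByExpr (minimum count 10, minimum total 15) were fitted over the whole table with edgeR 4.0.16 (R 4.3.3, TMM scaling, group only, quasi-likelihood test, two-sided) and adjusted by Benjamini-Hochberg over all 10390 genes. The SE is the size of the log2 fold change divided by the square root of F. Family sums were compared with exact permutation tests of log2 CPM (prior count 2). The steps were tested on simulated data. Alternatives were other scalings, DESeq2 1.42.0, limma-voom (limma 3.58.1), other filters, library sizes without both families or without the 20 most abundant genes, a replicate block, paralogs summed, and each library left out. Counts of members under an unadjusted p or with groups apart were added after seeing the data.

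Members and lists were chosen with earlier results of these data known. Values in every library were given for the family sums, for members named by symbol with at least 10 counts in a library, and for the 4 most abundant Mup genes and any with an unadjusted p under 0.05. From each list the genes with the smallest p were named. A gene that this rule takes is not reported here. Many genes have several annotated transcripts, and whether the gene values hold all of them was not tested.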

Additional observations from a re-analysis of the deposited data

Results flagged for a closer look

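In GFP control replicate 3, Cux2 was at 6.58 CPM, far from the other 3 control libraries, which lay between 0.113 and 0.379 CPM. In GFP control replicate 1, Mup16 was at 1572 CPM, far from the other 3 control libraries, which lay between 561 and 673 CPM. In each case the gap to the nearest library was large against the range of the group by Dixon's criterion. The values looked at were those of 26 members given in every library, the 2 family sums, 5 lists and Eif2s3y in both groups, 68 groups of 4 libraries in all. These 2 stood out, a smaller share of the 68 than the about 1 in 20 groups that chance alone gives. The scores of the sex-biased lists and Eif2s3y did not stand out by this criterion. Mup16 was not singular: by the same criterion, 8 of 26 groups of the other 13 Mup genes stood out, a larger share than about 1 in 20. In GFP control replicate 1 these were 5 genes (Mup2, Mup9, Mup11, Mup15 and Mup17). In POLR2G replicate 1 they were 3 of the same genes (Mup2, Mup9 and Mup17). These copies share most of their sequence, so the groups are not independent.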

How the results depend on the processing

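For the 25 members tested and named singly, 454 of 486 values under an alternative kept their direction and their side of the threshold, 4 passed it (DESeq2 for Ghr, Serpina1e, Mup3 and Mup21) and 28 turned direction, in 10 members whose main log2 fold change was at most 0.35 in size. The cause was not tested. Genes called over the whole table numbered 4, and 1 with library totals only, 140 with DESeq2, and 1 to 6 with a library left out. Members called numbered 0, and 4 with DESeq2. Members higher at an unadjusted p under 0.05 numbered 10, and 6 to 21 with a library left out. Members with the groups apart numbered 6, and 4 with library totals only and 6 to 20 with a library left out. For the count of 4 the share of all genes is not given. The log2 difference of the Mup sum was 0.37 to 0.86 with a library left out. That of the Serpina1 sum was 0.32 with upper quartile scaling, 0.22 with library totals only (exact permutation p = 0.0286 in both) and 0.26 to 0.35 with a library left out.

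Deviations of same-numbered libraries correlated at 0.0642, -0.0245 and 0.0361 over genes for numbers 1, 3 and 4. Such values over all genes cannot show whether the replicate numbers pair libraries. In several Mup genes, as given above, replicate 1 was the highest library of each group. With the replicate number as a block over the 6 libraries that share one, 2 genes and 0 members were called and 14 members were higher at an unadjusted p under 0.05, against 1, 0 and 5 in the same 6 libraries without the block. The share of all genes at that p is not given for these fits, so the counts of 14 and 5 cannot be set against it.

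Log2 fold changes that turned direction, with 1 library left out, ranged from -1.72 to 1.22 for Socs2, -0.24 to 0.27 for Bcl6, -0.19 to 0.0047 for Jak2, -0.19 to 0.088 for Igfbp2, -0.20 to 0.00075 for Mup20, -0.027 to 0.054 for Serpina1a, -0.016 to 0.073 for Serpina1b and -0.055 to 0.018 for Serpina1c. With library totals only they were -0.012 for Stat5b, -0.063 for Serpina1a and -0.041 for Serpina1b. Bcl6 was at 0.064 with limma-voom and Serpina1c at 0.0053 with upper quartile scaling. With the block Elovl3 was at 0.082 and Serpina1c at 0.011, and in the same 6 libraries without it Elovl3 was at 0.026, Mup20 at 0.011 and Serpina1c at 0.012. Low counts limit Socs2, Igfbp2, Cux2, Mup4 and Mup6, and shared sequence limits most single Mup genes.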
